A study of Mus musculus with 4 samples.

Results

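The 10 genes described here are those by which mesenchymal stem cells (MSCs) are usually recognised. They encode the surface proteins Thy1 (CD90), Nt5e (CD73), Eng (CD105), Cd44, Itgb1 (CD29) and Alcam (CD166), the receptors Pdgfra, Pdgfrb and Lepr, and the transcription factor Prrx1. They were chosen by symbol, and all 10 were found among the 42977 genes of the gene table. The RNA came from exosomes, small vesicles recovered from the medium of cultured cells. The cells were bone marrow MSCs of male SD rats aged 6 to 8 weeks, at passages 3 to 4. For the control group, MSC-Exo (2 libraries), the cells were given DMSO, the solvent. For the treated group, MSCATV-Exo (2 libraries), they were given 1 µmol/L atorvastatin (ATV), a statin that blocks cholesterol synthesis. The labels give the exposure as 24 h in one place and 48 h in another. The samples are registered as mouse, while the protocol, the genome build (rn6) and the gene symbols are of rat. Nothing in the labels says that libraries of one group came from different rats or cultures, so errors and p-values measure the spread between libraries, which may be technical. The comparison bears on how far the transcripts that define the parent cell are found in its exosomes, and whether atorvastatin changed them.

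MSCs are stromal cells that adhere to plastic and can form bone, fat and cartilage. No single protein defines them: they are recognised by a panel of surface proteins together with the absence of blood and endothelial markers. Thy1 is a small glycoprotein anchored by lipid in the cell surface membrane, Nt5e makes adenosine outside the cell, and Cd44 binds hyaluronan. Eng is a co-receptor for the transforming growth factor beta (TGF-beta) family. Itgb1 is the common beta chain of many receptors for matrix proteins, and Alcam mediates contacts between cells. Pdgfra and Pdgfrb are receptor tyrosine kinases for platelet-derived growth factors (PDGF), Lepr binds the hormone leptin and marks stromal cells of adult marrow, and Prrx1 is a homeobox factor of limb and skeletal mesenchyme. Exosomes carry RNA of the cell that sheds them, not necessarily in proportion to that cell's own content.

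The gene counts summed to between 5350295 and 5947020 per library. A gene listed at 0 could still have a level of up to 3 counts, or 0.504 to 0.561 CPM (counts scaled by the library total), by counting error alone. All CPM values and folds in CPM further below use totals that were also scaled by edgeR's TMM factors (0.923 to 1.045). Levels of different genes are compared in RPKM, reads scaled by gene length and library total. The median protein-coding gene stood at 4.12 to 4.74 RPKM over the libraries. The median of 1188 olfactory receptor genes, which are not typical of MSCs, stood at 1.71 to 2.47 RPKM, lowest in the first treated library. A level of a few RPKM is therefore set against these medians. Values of single libraries are given below in the order control replicate 1, control replicate 2, treated replicate 1, treated replicate 2. Of all 42977 genes, 34813 to 37318 were detected per library. Every one of the 10 MSC genes was detected in every library, and their counts summed to 1678, 1926, 1783 and 1992, or 0.0300% to 0.0360% of the library.

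Of the 10 genes, 3 stood above 10 RPKM on average: Itgb1 at 31.2, Thy1 at 20.3 and Prrx1 at 11.5. Of all 22633 protein-coding genes, 1359 (6.00%) did so. The other 7 lay between 2.35 and 7.52 RPKM. The order by mean level was Itgb1, Thy1, Prrx1, Eng, Pdgfra, Pdgfrb, Nt5e, Cd44, Lepr and Alcam. Itgb1, Thy1 and Prrx1 kept their ranks in each of the 4 libraries. Among neighbours in this order, the ranges over the 4 libraries lay apart for Itgb1 and Thy1 and overlapped for each other pair. Thy1 was nonetheless above Prrx1, Prrx1 above Eng and Cd44 above Lepr in 4 of 4 libraries. Pdgfra was above Pdgfrb in 2 of 4 libraries, as was Lepr above Alcam, so the order within these pairs changed between libraries. For Pdgfra the 2 libraries were the treated ones.

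**Figure D1:**
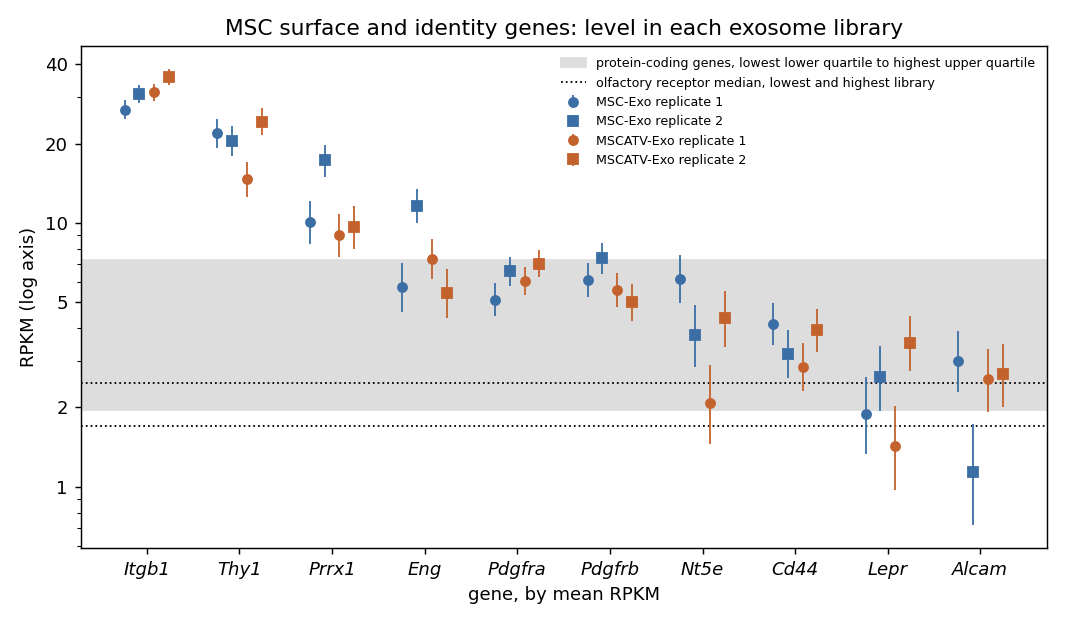
Level of each MSC gene in RPKM on a log axis, with genes ordered by their mean; colours give the group (blue MSC-Exo, orange MSCATV-Exo), circles replicate 1 and squares replicate 2, and bars are exact 95% Poisson intervals of the count, which cover counting error only. The grey band spans the lowest lower quartile to the highest upper quartile of protein-coding genes over the libraries and the dotted lines are the lowest and highest olfactory receptor median (1.71 and 2.47 RPKM); Itgb1, Thy1 and Prrx1 lie above the band in every library, and Lepr and Alcam reach below the dotted lines.

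Itgb1 (chromosome 19, 61677512 to 61725537, plus strand, rn6) was the most abundant of the 10, with read counts of 543, 621, 702 and 754, or 26.9, 30.8, 31.3 and 35.7 RPKM. Both treated libraries were above both controls. It exceeded 98.9% to 99.1% of protein-coding genes and was 10.9 to 18.3 times the olfactory receptor median. Its CPM differed 1.16-fold between the controls and 1.05-fold between the treated libraries. A short protein-coding gene model, LOC102556297, overlaps one end of it on the same strand with 35 to 67 counts. The protein-coding genes whose RPKM over the 4 libraries came closest to Itgb1, by Euclidean distance on log2(RPKM + 1), were LOC108348047 (distance 0.116), annotated as an Fc receptor, the uncharacterised LOC501391 (0.138) and the glutathione peroxidase gene Gpx1 (0.147).

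Thy1 (chromosome 8, 48382121 to 48387271, plus strand) had read counts of 240, 225, 179 and 278, or 21.9, 20.5, 14.7 and 24.2 RPKM, above 96.8% to 98.6% of protein-coding genes. The lowest and the highest value were both from treated cells. These libraries differed 1.51-fold in CPM, and their 95% counting intervals lay apart (12.6 to 17.0 and 21.5 to 27.3 RPKM), while the controls differed 1.05-fold. Prrx1 (chromosome 13, 81147038 to 81215559, minus strand) had read counts of 118, 202, 117 and 118, or 10.1, 17.3, 9.004 and 9.65 RPKM. The second control stood apart, at 7.33 times the olfactory receptor median, and the other 3 libraries lay at 4.09 to 5.27 times.

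Eng (chromosome 3, 11679530 to 11717486, plus strand) followed with read counts of 90, 182, 128 and 89, or 5.73, 11.6, 7.34 and 5.42 RPKM. Again the second control was the highest, 2.05-fold above the first in CPM. Eng exceeded 93.8% of protein-coding genes in that library and 60.0% to 79.5% in the others. The PDGF receptors were close to each other in level. Pdgfra (chromosome 14, 35527926 to 35581130, minus strand) had read counts of 197, 252, 258 and 282, or 5.13, 6.55, 6.04 and 7.02 RPKM. Pdgfrb (chromosome 18, 56364586 to 56406381, plus strand) had 183, 222, 187 and 158, or 6.08, 7.37, 5.59 and 5.02 RPKM. The ratio of Pdgfra to Pdgfrb in RPKM was 0.843, 0.889, 1.08 and 1.40, higher in both treated libraries than in either control. This ratio was chosen after the levels were seen and is given without a test, since an exact two-sided permutation test of 2 libraries against 2 cannot give a p below 0.333. The lncRNA LOC102555480 lies within the span of Pdgfrb on the opposite strand with 196 to 303 counts. The library kit does not mark strand, so reads from sequence that both models share cannot be told apart. LOC102554024, annotated as resembling Pdgfra, lies within the span of Pdgfra with 16 to 28 counts.

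Nt5e and Cd44 lay below the median protein-coding gene in every library, except for Nt5e in the first control. Nt5e (chromosome 8, 95969002 to 96012733, plus strand) had read counts of 93, 57, 35 and 69, or 6.15, 3.77, 2.08 and 4.36 RPKM. Its libraries differed beyond counting error within both groups, 1.61-fold and 1.92-fold in CPM, and its rank among the 10 went from the fourth to the ninth. Cd44 (chromosome 3, 92695083 to 92783820, minus strand) had read counts of 119, 92, 91 and 118, or 4.15, 3.20, 2.85 and 3.93 RPKM. It was even across the libraries, at 1.36 to 1.73 times the olfactory receptor median and above 32.7% to 42.8% of protein-coding genes.

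Lepr and Alcam were the lowest. Lepr (chromosome 5, 120503475 to 120682281, plus strand) had read counts of 37, 51, 31 and 72, or 1.89, 2.61, 1.43 and 3.52 RPKM. In the first library of each group it was below the olfactory receptor median, at 0.768 and 0.837 times its level. Another gene model on the same strand, the processed transcript ENSRNOG00000062308, spans all of Lepr and had counts of 42, 51, 31 and 89. How reads shared by these models were assigned is not stated, so the level of Lepr is uncertain. Leprot, whose span overlaps the start of Lepr, had 19, 50, 39 and 58 counts. Alcam (chromosome 11, 50780735 to 50985083, plus strand) had read counts of 58, 22, 55 and 54, or 3.01, 1.14, 2.57 and 2.68 RPKM. Here the second control was the low library, at 0.484 times the olfactory receptor median, and its counting interval of 0.715 to 1.73 RPKM lay apart from that of the first (2.29 to 3.89).

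The label of the parent cell was checked against markers of cells an MSC culture could also hold, and of tissues it should lack. Of 43 such markers 42 were found, and 0 of them stood at 0 in all libraries. Their mean levels had a median of 5.56 RPKM and reached 9.19 (Klf1, an erythroid transcription factor). Itgb1, Thy1 and Prrx1 were above all 42, and the other 7 MSC genes, with a median of 4.09 RPKM, lay inside their range. Ptprc, which encodes the leukocyte antigen CD45, had read counts of 104, 55, 36 and 57. Those of the progenitor marker Cd34 were 20, 58, 16 and 20. The myeloid genes Itgam and Cd14 had 60, 82, 84 and 132, and 56, 60, 63 and 50. The B cell gene Cd79a had 20, 12, 4 and 15. The endothelial genes Pecam1 (CD31) and Cdh5 had 82, 54, 35 and 57, and 71, 132, 67 and 53. By level, then, 7 of the 10 MSC genes did not stand apart from genes of blood, endothelium, epithelium, liver or neurons.

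Summed levels of all 7 lists of other cell types were lower on average in the treated libraries. Both treated libraries lay below both controls for the erythroid markers (35.4, 38.3, 26.04 and 31.5 RPKM), the haematopoietic progenitor markers (21.1, 26.5, 19.8 and 18.98) and the neural markers (22.4, 19.4, 18.2 and 17.9). The groups overlapped for the 13 leukocyte markers (60.0, 80.1, 54.3 and 77.2), the 7 endothelial markers (35.0, 41.0, 31.9 and 36.1), the epithelial markers (31.2, 22.97, 16.96 and 25.7) and the hepatocyte markers (21.3, 20.1, 20.3 and 17.2). They overlapped likewise for the 10 MSC genes, which summed to 91.0, 104.8, 82.9 and 101.5 RPKM, also lower on average after treatment. On this scale the median protein-coding gene was lower in both treated libraries as well (4.74, 4.70, 4.12 and 4.54 RPKM). Lower levels were therefore not confined to these lists, but sums of the partner lists described below went both ways. Both treated libraries lay above both controls for other stromal progenitor markers (117.3, 111.3, 126.7 and 133.3). The TGF-beta family around Eng did likewise (223.7, 233.1, 234 and 276). Both lay below for the integrin alpha chains (64.7, 65.35, 62.6 and 64.4). The same held for the adenosine pathway around Nt5e (49.2, 45.05, 41.6 and 44.05). How often sums over any other genes separate in this way was not computed. The part of the markers of other cell types in the levels of the MSC genes was not tested.

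**Figure D2:**
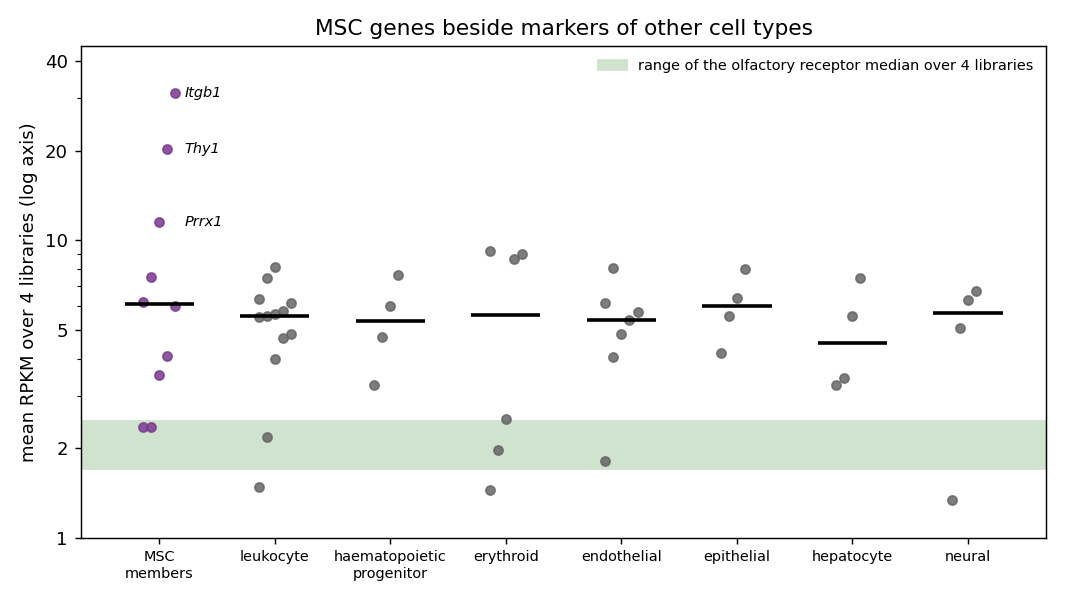
Mean RPKM over the 4 libraries on a log axis for the 10 MSC genes (purple) and for markers of 7 other cell types (grey), 1 point per gene, with a bar at each list's median; the green band is the range of the olfactory receptor median. Itgb1, Thy1 and Prrx1 lie above every other point, and the remaining 7 MSC genes share the range of the other lists, whose highest gene is at 9.19 RPKM.

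Atorvastatin pretreatment was tested with edgeR on the counts of all 33480 genes that passed a filter on low counts, all 10 MSC genes among them. Of the 10, 0 passed an adjusted p of 0.05, as did 0 of all genes (0%). Before adjustment, 0 of the 10 and 1236 of all genes (3.69%) had a p under 0.05. DESeq2 called 106 genes (0.317%) and 0 of the 10. Log2 fold changes of treated over control were above 0 for 4 of the 10 and below 0 for 6, with a median of -0.03. Over all genes tested 49.4% were above 0, with a median of -0.01. Both the members' median and their tally turned with a library or the scaling: 6 were above 0 (median 0.19) without the first treated library, 3 (-0.15) without the second, and 6 (0.15) with RPKM set over the olfactory receptor median. The median of all genes was -0.11 with library totals in place of TMM factors and 0.18 over the olfactory receptor median. In CPM scaled by edgeR's TMM factors, 2 of the 10 had groups that lay apart, both higher after treatment, and 0 lower. Of all genes 33.5% had groups that did not overlap, 16.1% higher and 17.4% lower, so 2 of 10 is no more than the background. In bulk RNA, fewer vesicles or cells of a kind and less of a transcript in each cannot be told apart.

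The genes with separated groups were Itgb1 and Pdgfra. Itgb1 averaged 105.6 ± 11.0 CPM (SD, n = 2) in the controls and 131.5 ± 4.21 after treatment. Its log2 fold change was 0.32 ± 0.23 (SE), with an edgeR adjusted p of 1.00, and ranged from 0.21 to 0.43 with a library left out. Pdgfra averaged 40.7 ± 7.45 and 48.8 ± 2.17 CPM, a difference of 0.26 ± 0.30 (SE) on the log2 scale, with an edgeR adjusted p of 1.00. Its range with a library left out was 0.08 to 0.46. The separation depends on the scaling: with library totals in place of TMM factors, 1 gene was separated and higher (Itgb1) and 2 were separated and lower (Prrx1 and Pdgfrb), while the groups of Pdgfra overlapped. The share of all genes with separated groups was not computed on that scale, where the median of all genes was -0.11.

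**Figure D3:**
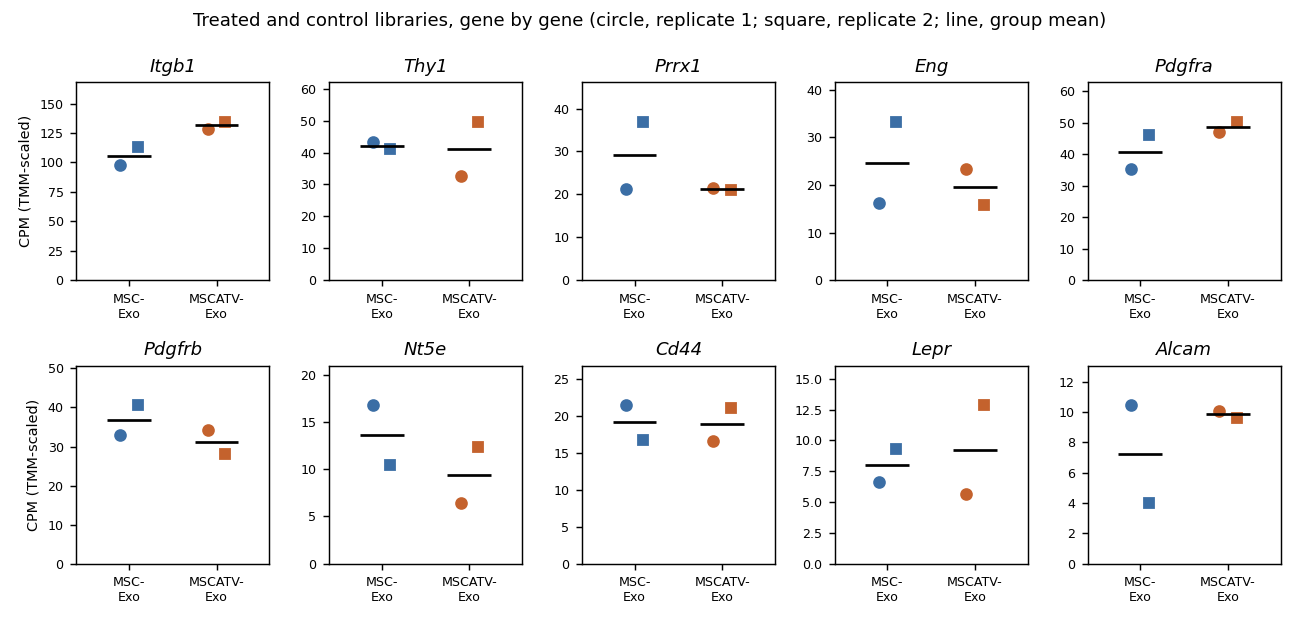
TMM-scaled CPM of each MSC gene by group, each panel with its own axis from 0; circles are replicate 1, squares replicate 2 and lines the group means. The groups lie apart for Itgb1 and Pdgfra and overlap for the other 8 genes.

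The fold changes farthest from 0 belonged to genes whose libraries disagreed within a group. Nt5e averaged 13.6 ± 4.48 and 9.36 ± 4.17 CPM (log2 fold change -0.54 ± 0.62, SE), with a range from -1.07 to -0.14 when a library was left out. Prrx1 averaged 29.1 ± 11.1 and 21.2 ± 0.264 CPM (-0.45 ± 0.40), Alcam 7.23 ± 4.54 and 9.85 ± 0.310 (0.44 ± 0.73), and Eng 24.7 ± 12.04 and 19.6 ± 5.34 (-0.33 ± 0.46). These last values rest on the second control: without it they were 1e-04 for Prrx1, -0.08 for Alcam and 0.28 for Eng. Pdgfrb was at -0.24 ± 0.33, between -0.39 and -0.08 with a library left out. Lepr was at 0.21 ± 0.72, and went to -0.49 without the second treated library and to 0.68 without the first. Thy1 (-0.03 ± 0.32) and Cd44 (-0.02 ± 0.43) were closest to 0, which with these errors does not show that they stayed the same.

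**Figure D4:**
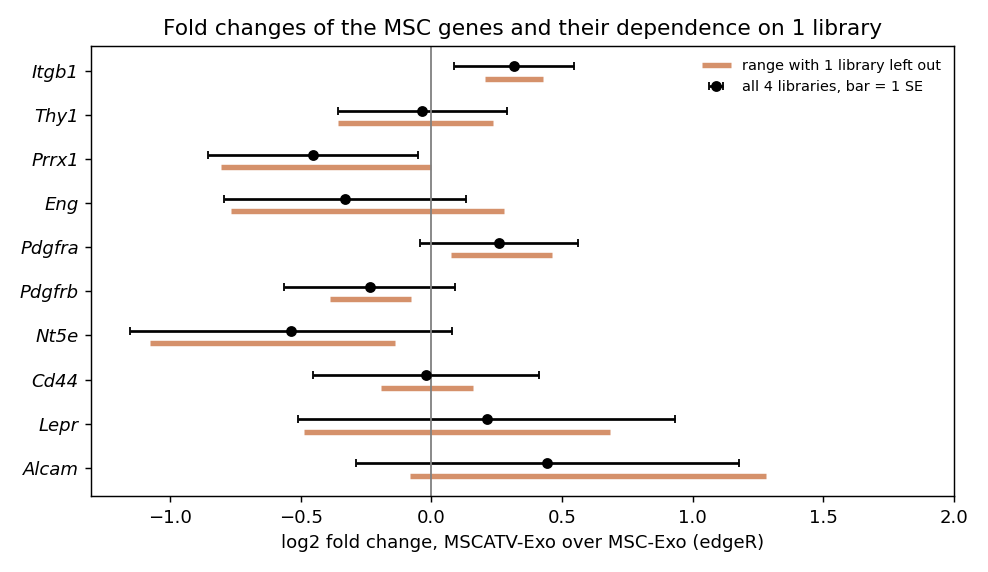
Log2 fold change of each MSC gene, MSCATV-Exo over MSC-Exo, from edgeR on all 4 libraries (black points, bars 1 SE) and the range of the value when any 1 library is left out (orange bars). For Itgb1, Pdgfra, Pdgfrb and Nt5e the orange bar stays on 1 side of 0, and for the other 6 it reaches or crosses 0.

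In the authors' deposited table, whose test is not stated, 3 of the 10 had a q-value under 0.05: 1 higher and 2 lower after treatment. Such values were given in the authors' deposited table for 38021 genes, of which 34.3% had a q-value under 0.05, 12.4% higher and 21.9% lower, so the members' share is near the background. For Prrx1 the authors' deposited table gave q = 0.00790 with a log2 ratio of -0.55, for Itgb1 0.0269 with 0.22 and for Nt5e 0.0419 with -0.62. Eng stood just outside at 0.05003, and Pdgfrb at 0.0613, in the authors' deposited table. The Prrx1 mean of 13.7 RPKM for the controls in the authors' deposited table joins libraries at 10.1 and 17.3 RPKM. The edgeR test, which sets the difference against the spread between libraries, called 0 of these genes.

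The partners of these proteins were read from 8 lists, and 0 of their tested genes passed the edgeR test in either direction. Around Itgb1, all 12 alpha chains that can pair with it were detected, at 2.70 to 8.25 RPKM on average against 31.2 for the beta chain. Itga3, a laminin receptor chain, was the highest at 9.22, 7.70, 8.43 and 7.65 RPKM, with a log2 fold change of 0.04 ± 0.31 (SE). Itga7, a laminin-binding chain typical of muscle, had read counts of 173, 138, 205 and 320 (0.75 ± 0.34). Itga5, of the fibronectin receptor, was at 0.08 ± 0.42 and Itga6 at -0.62 ± 0.41. Of the 12 chains 9 were above 0 and 3 below, with a median of 0.05, but with library totals 3 were above and 9 below (-0.06), and without the first control 6 and 6 (-0.03). The groups of 3 of the 12 did not overlap, against 33.5% of all genes. Of 6 genes for proteins that link the beta chain to actin and signalling, 2 were above 0 and 4 below. Their median of -0.08 became 0.09 without the first treated library, -0.29 without the second and -0.21 without the first control, and the groups of 1 did not overlap (33.5% of all genes). Ilk was at 0.01, Tln1 at -0.02, Fermt2 at -0.34 and Lims1 at 0.32.

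Around Eng, the ligand gene Tgfb3 stood out by level. Its read counts were 2458, 2941, 3138 and 3692, or 139.1, 166.3, 159.8 and 199.7 RPKM, above each of the 10 MSC genes in every library. Its log2 fold change was 0.33 ± 0.17 (SE), with groups that did not overlap in TMM-scaled CPM but did in RPKM. The tables do not say where along the gene these reads lie. Tgfb1 (8.85, 10.3, 8.08 and 11.5 RPKM) was at 0.13 ± 0.50, and the bone morphogenetic protein genes Bmp4 and Bmp2 were at 0.56 ± 0.54 and 0.96 ± 0.53. Of the 16 ligands, receptors and Smads 9 were above 0 and 7 below, and the groups of 3 did not overlap (33.5% of all genes). Their median of 0.09 became -0.01 without the second treated library and with library totals.

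The PDGF ligand genes were low and uneven. Read counts were 57, 108, 58 and 77 for Pdgfa, 52, 48, 32 and 65 for Pdgfb, 59, 2, 49 and 24 for Pdgfc, and 45, 27, 0 and 34 for Pdgfd. The groups of all 4 overlapped, and the median log2 fold change of -0.18 ranged from -0.56 (without the second treated library) to -0.11 (without the first). Around Lepr, the phosphatase gene Ptpn11 was abundant, at 30.4, 30.6, 34.4 and 42.9 RPKM (0.44 ± 0.20, SE). The kinase gene Jak2 (0.83 ± 0.69) was likewise higher in both treated libraries than in either control. Socs3, a feedback inhibitor, was lower in both, with read counts of 128, 168, 77 and 89 (-0.84 ± 0.41). Stat3 was at 0.66 ± 0.43 and the ligand gene Lep at -0.02 ± 0.41. Of these 5 genes 3 were above 0 and 2 below. Their median of 0.44 ranged from 0.25 (without the second treated library) to 0.53 (without the first). The groups of 2 lay apart and higher and of 1 apart and lower (16.1% and 17.4% of all genes). Whether leptin signalling changed was not tested.

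Around Cd44, the gene of the cytoskeletal linker moesin, Msn, was at 20.8, 28.2, 30.2 and 35.0 RPKM, above Cd44 itself in every library, with a log2 fold change of 0.51 ± 0.29 (SE). Its relative Ezr was at 0.59 ± 0.41. Rdx, of the same family, went the other way, at -0.81 ± 0.54, and was lower in both treated libraries than in either control. The hyaluronidase genes Hyal1 and Hyal2 were at 0.77 ± 0.40 and -0.59 ± 0.40. Of the 9 genes in this list 5 were above 0 and 4 below, with a median of 0.20 that became -0.04 without the first treated library and 0.46 without the second. The groups of 6 lay apart, 4 higher and 2 lower (16.1% and 17.4% of all genes). Around Nt5e, 2 of 7 tested genes were above 0 and 5 below, and the groups of 1 did not overlap (33.5% of all genes). Their median of -0.10 became -0.02 without the first treated library, again over 7 genes. The list's median was above 0 without the first control (0.08), the second control (0.05) or the second treated library (0.15). In each of those fits 8 genes passed the filter, so the set of genes changed along with the libraries. The adenosine receptor genes Adora2a, Adora2b and Adora1 were at 0.08 ± 0.27, -0.14 ± 0.51 and -0.71 ± 0.68. Ada, which encodes the enzyme that breaks down adenosine, was at -0.10 ± 0.58, and Entpd2, which acts upstream of Nt5e, at 0.45 ± 0.42.

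Of 21 other markers of stromal progenitors, 20 passed the filter on low counts and 1, Cd248, stood at 0 in every library. Of the 20, 10 were above 0 and 10 below, with a median of 0.00430 that went to -0.11 with library totals, as did the median of all genes. The groups of 10 lay apart, 6 higher and 4 lower (16.1% and 17.4% of all genes). The 2 with a p under 0.05 before adjustment, as 3.69% of all genes had, encode mesenchymal transcription factors. Twist1 had read counts of 15, 43, 154 and 77, a log2 fold change of 1.99 ± 0.67 (SE) with an edgeR adjusted p of 1.00. Prrx2, the paralogue of Prrx1, had 62, 48, 144 and 95, or 9.44, 7.31, 19.7 and 13.8 RPKM (1.12 ± 0.50), with an edgeR adjusted p of 1.00. Grem1, which encodes the bone morphogenetic protein antagonist gremlin, was at 12.5, 9.36, 16.5 and 15.3 RPKM (0.65 ± 0.29), and Snai2, a transcription factor gene, at 1.26 ± 0.80. All 4 were higher in both treated libraries than in either control by TMM-scaled CPM, although in RPKM the groups of Snai2 overlapped. They were named for their level or small p, and other markers of the list went the other way. The 4 whose groups lay apart and lower were Cd200 (-1.89 ± 1.04), Bst1 (-1.32 ± 1.06), Meox2 (-1.16 ± 0.69) and Vcam1 (-0.85 ± 0.86). DESeq2 called 0 of the 20.

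**Figure D5:**
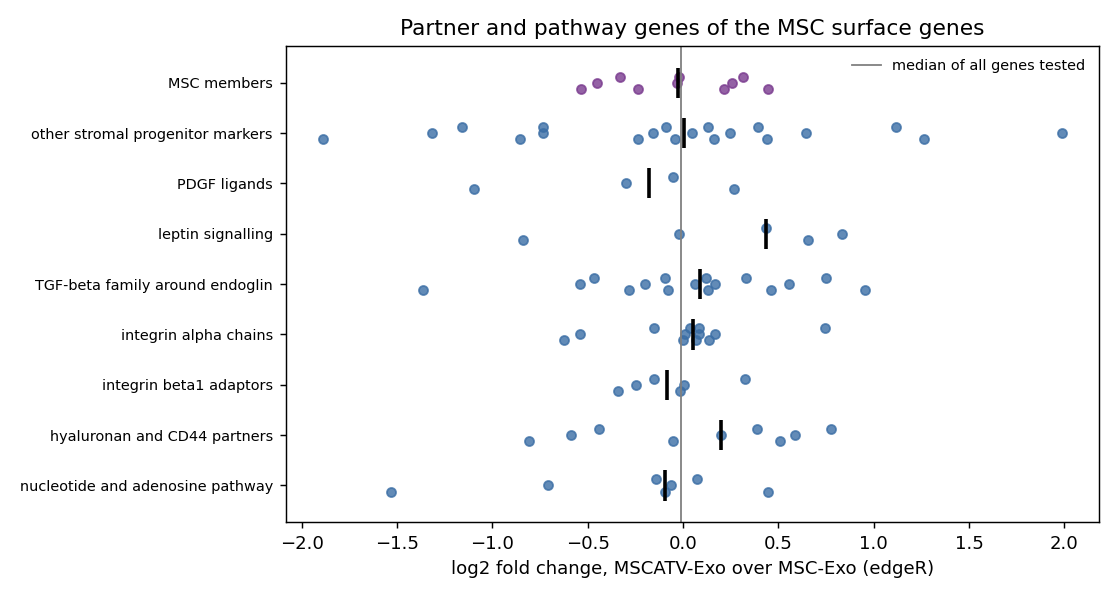
Log2 fold change, MSCATV-Exo over MSC-Exo, of the 10 MSC genes (purple) and of the tested genes of 8 partner lists (blue), 1 point per gene, with a bar at each list's median and a grey line at the median of all genes tested (-0.01). The 10 MSC genes lie between -0.54 and 0.44, while the other stromal progenitor markers reach from -1.89 to 1.99.

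Among 18408 non-coding transcripts, deposited separately, 0 carry the symbol of any of the 10 genes, so the values above come from the gene table alone.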

How the data were processed

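The submitters' processing notes name TopHat2 and the rat build, as rn6 and Rnor_6.0; the version, counter and annotation release are not given in the sources used here. Raw counts per gene were deposited together with RPKM, and RPKM recomputed from counts, lengths and gene-count totals matched the deposited values within 0.00051%. Per the file headers, the authors' comparison table holds a log2 ratio of mean RPKM, a p-value and a q-value, by a test that is not stated. The counts of all genes were fitted in R 4.3.3 with edgeR 4.0.16, using filterByExpr, TMM factors and the two-sided quasi-likelihood F test, and p-values were adjusted by Benjamini-Hochberg over 33480 genes (threshold 0.05). Alternatives used DESeq2 1.42.0, limma 3.58.1, other scalings and filters, and fits without each library. Intervals of single counts are exact 95% Poisson intervals. The 10 members and the 15 other gene lists were chosen with earlier results of these data known. All members are named, and of each partner list the 3 genes with the highest mean RPKM and the 2 with the smallest p, or all genes of lists of 5 or fewer. Of the other stromal progenitor markers, those with groups apart and lower are named as well, and Rdx is named beside its relatives Msn and Ezr. The sequence tables provided are of mouse, so no sequence is printed for these rat genes.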

Additional observations from a re-analysis of the deposited data

How the results depend on the processing

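None of the 10 MSC genes passed an adjusted p of 0.05 under any of the 13 alternatives with a test, by edgeR, DESeq2 or limma (smallest adjusted p = 0.703, Itgb1 with DESeq2). The number of genes called in the whole table went from 0 to 106 with DESeq2, 8 with no filter on low counts, 4 with the replicate block, and 1 to 168 with a library left out. Deviations of same-numbered libraries from their group means were not correlated over genes (-0.001). With 2 libraries a group this cannot tell whether the libraries were prepared in pairs. The block gave no MSC gene a call. With total counts, and likewise by RPKM, the groups of 1 MSC gene were separated and higher and of 2 separated and lower, in place of 2 and 0. The share of all genes separated on these scales was not computed. With a library left out, log2 fold changes on both sides of 0 were found for Thy1 (-0.36 to 0.24), Prrx1 (-0.80 to 1e-04), Eng (-0.77 to 0.28), Cd44 (-0.19 to 0.16), Lepr (-0.49 to 0.68) and Alcam (-0.0831 to 1.28). Dividing RPKM by the olfactory receptor median, added after the data were seen, turned Thy1 to 0.13 and Cd44 to 0.16. The cause was not tested. Counts of 22 to 754 per MSC gene and library, with 2 libraries a group, limit what could be detected.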
